A study of Mus musculus with 19 samples.

Results

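Thymocytes of 2 OT-I mice (replicates 1 and 2) were compared with unsorted thymocytes of 2 wild-type B6 mice (replicates 4 and 5). All 4 came from 1 experiment, and they were chosen by genotype and by the absence of a sort, without use of any measured value. CITE-seq was used, which counts RNA and antibody tags as unique molecular identifiers (UMIs) in the same droplet-captured cell. Each OT-I mouse was run on 1 lane of the droplet system and each wild-type mouse on 2 lanes, which were summed. OT-I 1 and wild-type 4 were run on lanes 1 to 3, and OT-I 2 and wild-type 5 on lanes 8 to 10, so that each OT-I mouse had a wild-type partner in its own lane group. After removal of barcodes with over 15% mitochondrial UMIs or under 200 genes, there were 3754 and 3453 OT-I cells and 12521 and 9646 wild-type cells, together 29374 of the 79569 cells of the whole series. The mice were 4 to 8 weeks old, all on the C57BL/6 background. The OT-I mice carried the C57BL/6-Tg(TcraTcrb)1100Mjb T cell receptor (TCR) transgenes, with no Rag deletion named for them, and no group received an agent. What drives the transgenes is not stated in the sources used here. Values below are always in the order OT-I 1, OT-I 2, wild-type 4 and wild-type 5.

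The OT-I receptor pairs a Va2 alpha chain with a Vb5 beta chain and recognizes the ovalbumin peptide SIINFEKL on the MHC class I molecule H-2Kb. Wild-type thymocytes pass from the double-negative (DN) stage, without CD4 and CD8, to the double-positive (DP) stage, where Rag1 and Rag2 recombine the Tcra locus and the finished TCR is tested on self-peptides. A DP cell that receives a signal raises CD69 and CD5, stops recombination, and becomes a CD4 or CD8 single-positive (SP) cell under the transcription factors Zbtb7b (ThPOK) or Runx3. A rearranged transgene is expressed without that delay, and a class I receptor directs cells toward the CD8 lineage.

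The RNA of the beta chain came almost entirely from 1 V segment in the OT-I mice. The Vb5 antibody recognizes the products of Trbv12-1 and Trbv12-2, and the letters of these neighboring segments are shown because their RNA went in opposite directions. Both are the second of 2 exons on the plus strand of chromosome 6 (GRCm38), chr6:41113775-41114067 for Trbv12-1 and chr6:41119072-41119364 for Trbv12-2. They are 293 bases long and 89.1% identical, with the 32 bases that differ in capitals.
Trbv12-1: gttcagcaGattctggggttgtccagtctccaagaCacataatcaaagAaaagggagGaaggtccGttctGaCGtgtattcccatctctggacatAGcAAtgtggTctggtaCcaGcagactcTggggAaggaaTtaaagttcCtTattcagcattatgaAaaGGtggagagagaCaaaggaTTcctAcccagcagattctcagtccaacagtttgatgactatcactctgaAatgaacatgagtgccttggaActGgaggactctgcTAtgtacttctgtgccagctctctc
Trbv12-2: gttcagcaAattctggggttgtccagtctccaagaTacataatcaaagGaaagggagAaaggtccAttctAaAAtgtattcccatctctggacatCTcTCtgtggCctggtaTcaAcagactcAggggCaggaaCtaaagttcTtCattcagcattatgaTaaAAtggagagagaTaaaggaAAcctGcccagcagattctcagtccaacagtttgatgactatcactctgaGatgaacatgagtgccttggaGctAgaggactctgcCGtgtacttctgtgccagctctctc

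Trbv12-1 held 2000 of 2032 Trbv UMIs (98.4%) in OT-I 1 and 3019 of 3033 (99.5%) in OT-I 2, against 220 of 4309 (5.11%) in wild-type 4 and 236 of 3122 (7.56%) in wild-type 5. The Wilson 95% intervals of the OT-I mice ran from 97.8% to 98.9% and from 99.2% to 99.7%, and cover counting error only. Trbv12-2 held 0.443% and 0.0989% of the Trbv UMIs in the OT-I mice and 7.47% and 4.48% in the wild-type mice. Both segments separated the groups, in opposite directions, and reads of such similar segments may be split in counting. UMIs were found for 11 and 7 of 35 Trbv segments in the OT-I mice and for 27 and 24 in the wild-type mice. The share of Trbv12-1 was 96.7% and 98.6% in OT-I DN cells, 99.6% and 99.7% in OT-I CD4 SP cells and 98.6% and 100% in OT-I CD8 SP cells, as the plot of Trbv12-1 shares shows. The alpha chain gave no such pattern: the Trav14 segments, which encode Va2, held 12.8% and 16.4% of Trav UMIs in the OT-I mice and 12.7% and 14.2% in the wild-type mice, and the groups overlapped. UMIs were found for 53 and 43 of 128 Trav segments in the OT-I mice and for 86 and 80 in the wild-type mice, at totals of 1100, 529, 5665 and 2051 Trav UMIs. The 3' libraries read V segments rarely, so that these shares rest on few molecules.

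**Figure D1:**
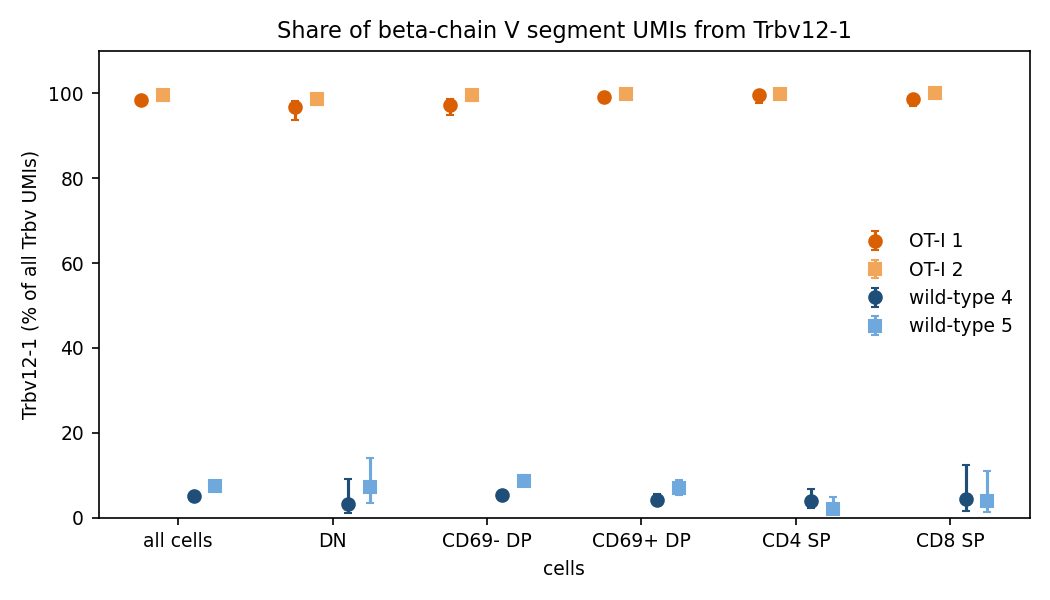
Share of Trbv12-1 among all beta-chain V segment UMIs (%) in all cells and in 5 antibody gates, for each mouse; bars are Wilson 95% intervals of counting error. The OT-I mice lie above 96% in every gate, and the wild-type mice below 9%.

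Depth differed between the lane groups and between the genotypes within them. Median RNA UMIs per cell were 7062 and 3114 in the OT-I mice and 3086 and 1541 in the wild-type mice, and summed UMIs ran from 13905951 to 65649023 per mouse. Barcodes over the mitochondrial limit were 20.5% in OT-I 1, 4.0% in OT-I 2, and 5.3% to 10.7% in the wild-type lanes. Pairs of lanes shared 2 to 16 cell barcodes, at most 0.353% of the smaller lane. Hemoglobin RNA was uneven: the 6 erythroid markers summed to 1449.5 and 88.5 against 703 and 182 CPM (counts per 1000000 RNA UMIs of the mouse), the highest level being that of OT-I 1. Their part in the results below was not tested.

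The gates differed most in the DN, CD69- DP and CD8 SP cells. Cells were gated on antibody levels per 10000 antibody UMIs, with 1 threshold per antibody for all mice, at 81.5 for CD4, 123 for CD8a, 31.9 for the TCR beta chain and 12.2 for CD69. DN cells were 18.3% and 21.1% in the OT-I mice and 2.18% and 3.77% in the wild-type mice. CD69- DP cells, those DP cells below the CD69 threshold, were 12.6% and 7.59% in the OT-I mice and 57.1% and 51.2% in the wild-type mice. CD8 SP cells, which also carried the TCR beta chain, were 27.3% and 26.5% in the OT-I mice and 2.03% and 2.92% in the wild-type mice. In each of these gates the 2 groups were far apart, and the differences were 16.2 and 17.3 percentage points for DN, -44.6 and -43.6 for CD69- DP, and 25.2 and 23.5 for CD8 SP in the lane groups. CD69+ DP cells were closer, at 23.9% and 25.3% in the OT-I mice and 29.01% and 30.04% in the wild-type mice. The CD4 SP gate also held more cells in the OT-I mice, 15.3% and 15.5% against 8.62% and 10.3% in the wild-type mice. This excess lay in its CD69+ cells (13.6% and 14.3% against 7.31% and 8.91%). Its CD69- cells overlapped between the genotypes (1.77% and 1.26% against 1.31% and 1.36%). The paper names a prominent CD4+ CD8lo (low CD8) population in OT-I mice. Cells with CD8a below 123 fall in this gate, and the part of CD8lo cells in it was not tested. None of the 5 gate shares overlapped between the genotypes. In the 2 lanes of wild-type 5, CD69- DP cells were 52.7% and 49.6% and CD69+ DP cells 28.6% and 31.6%, the latter further apart than the 2 wild-type mice. An exact permutation test of 2 against 2 mice (two-sided) cannot give less than p = 0.333, which was the value for each of the 5 shares. Shares sum to a fixed total, so a fall in 1 gate raises the others.

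**Figure D2:**
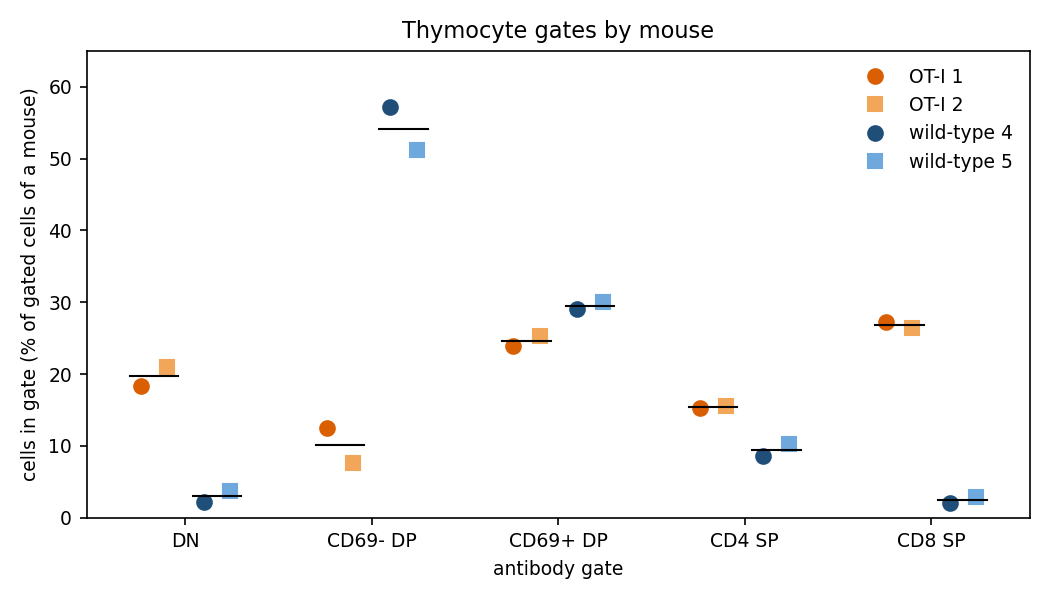
Share of each mouse's gated cells (%) in 5 antibody gates; points are mice and black lines the mean of 2 mice per genotype. OT-I mice had more DN (18.3% and 21.1%) and CD8 SP cells (27.3% and 26.5%) and fewer CD69- DP cells (12.6% and 7.59%) than the wild-type mice.

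The DN gate of the OT-I mice was not made of cells without a receptor. The TCR beta chain passed its threshold in 85.4% and 87.4% in the OT-I mice and 13.3% and 14.04% in the wild-type mice of DN cells, and Vb5 in 88.7% and 93.1% against 1.52% and 2.05%. In all cells Vb5 passed its threshold in 89.3% and 88.3% in the OT-I mice and 2.89% and 3.42% in the wild-type mice. Vb5 was thus found on most OT-I cells and on few wild-type cells. Among CD69- DP cells it was lower, at 58.7% and 48.2% against 1.32% and 1.49%, while OT-I SP cells were nearly all positive, at 100% and 99.6% against 6.62% and 5.699% in the CD4 SP gate and 99.7% and 99.3% against 15.4% and 14.7% in the CD8 SP gate. The Vb8 antibody had no usable threshold: its cut fell at 1.44 per 10000, near a single UMI.

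Within the DP cells the coreceptors and the receptor were at different levels. Median CD8b, the chain that pairs with CD8a on conventional T cells, was 375 and 391 in the OT-I mice and 1387 and 1492 in the wild-type mice per 10000 antibody UMIs. Median CD4 was 303 and 266 against 538 and 568 and median CD8a 341 and 305 against 699 and 767. All 3 medians were lower in both OT-I mice than in either wild-type mouse on this scale, which divides by each cell's antibody total. In the test on summed UMIs CD8b changed with the scaling: its log2 fold change was -0.83 in the CD69- DP and -1.43 in the CD69+ DP gate by total, both called, and -0.32 and -0.56 by TMM, neither called. The median TCR beta chain was 57.5 and 50.9 against 13.1 and 14.4 in DP cells, but 105 and 91.3 against 214 and 217 in the CD4 SP gate and 104 and 90.05 against 138 and 130.2 in the CD8 SP gate. OT-I cells in the CD4 SP gate had more CD8a below its threshold, 62.8 and 64.995 against 23.1 and 23.9. These are per-cell medians of antibodies that define the gates or follow them, and are given without a test. Total scaling moved the median log2 fold change of the antibodies by -0.67 in the CD4 SP and -0.69 in the CD8 SP gate relative to TMM. The levels of the TCR beta chain on SP cells thus depend on the scale. On the log2 scale, its medians differed between the genotypes by more than that shift in the CD4 SP gate and by less in the CD8 SP gate. CD69 was positive in 65.5% and 76.9% against 33.7% and 36.97% of DP cells, and its levels formed no clear second peak.

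**Figure D3:**
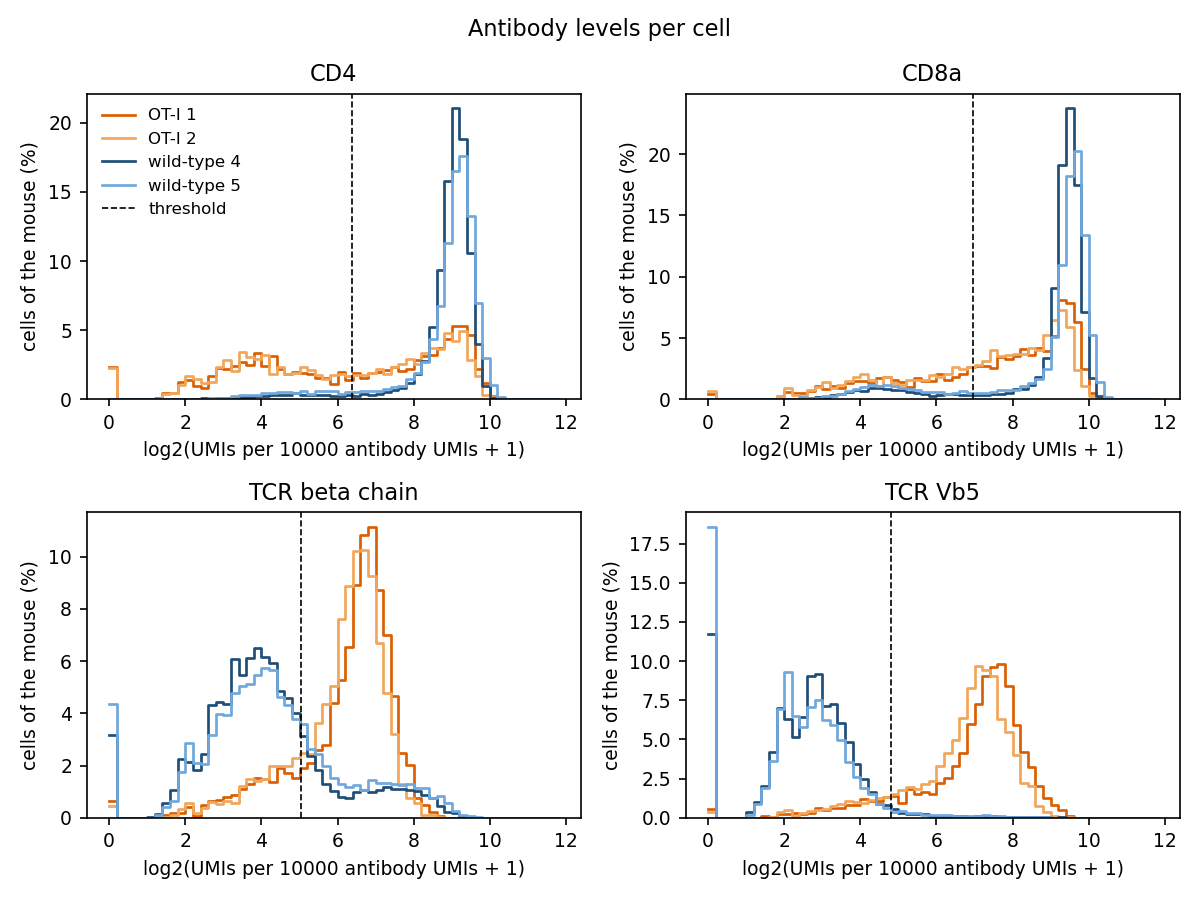
Distribution of 4 antibodies over the gated cells of each mouse, as log2 of UMIs per 10000 antibody UMIs plus 1; the dashed line is the threshold. OT-I cells lay above the threshold in 82.6% and 81.3% of cases for the TCR beta chain and 89.3% and 88.3% for Vb5, against 22.7% and 29.4%, and 2.89% and 3.42%, of wild-type cells.

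The RNA comparison asked which genes differ between thymocytes that carry the class I receptor transgenes and wild-type thymocytes. RNA was tested on UMIs summed per mouse with edgeR's quasi-likelihood test, with the lane group as a block, and genes were called at a Benjamini-Hochberg adjusted p under 0.05. In all cells, 2494 genes were higher and 2704 lower in the OT-I mice of 12964 tested, that is 19.2% and 20.9%. Of these, 5082 went the same way in both lane groups. In bulk sums, fewer cells of a type and less RNA per cell cannot be told apart. With 2 mice per genotype and 1 residual degree of freedom the estimate of the spread is borrowed from other genes. Without the lane group as a block, 28 genes were called in all cells, 10 higher and 18 lower, 59 in the DN gate, and 0 in each of the CD69- DP, CD69+ DP, CD4 SP and CD8 SP gates, where 1027, 1062, 390 and 271 had an unadjusted p under 0.05 in edgeR. Fits that left out 1 mouse, here and below, also held the OT-II mice (with a transgenic class II receptor) so that the block could be kept, except in the CD8 SP gate, with 4309 genes called in all cells when no mouse was left out; without OT-I 1, OT-I 2 or wild-type 4 they called 2376, 3201 and 3437. Genes given as largest rises or falls leave out TCR and immunoglobulin segments and constant regions, predicted genes, genes whose proteins define the gate and genes with a mean under 10 CPM. Scaling to the total in place of TMM lowered the median log2 fold change of all genes from -0.02 to -0.15 and gave 1620 higher and 3674 lower; log2 fold changes below are TMM-scaled and thus relative to a median near 0.

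Recombination and DP-stage genes were the main group that fell in all cells. Rag1, which cuts DNA at the recombination signals, was at 26.9 and 52.1 CPM in the OT-I mice and 988 and 1587 CPM in the wild-type mice (log2 fold change -4.93 ± 0.11, adjusted p = 4.91e-182). The lower wild-type mouse was far above the higher OT-I mouse. Rag2, its partner, was at 4.58 and 5.68 against 99.8 and 115 CPM (-4.27 ± 0.12). Of the 15 genes listed for the preselection DP stage, 14 were lower and 1 higher, with a median of -2.39. Ptcra, the pre-TCR alpha chain, was at 9.905 and 13.6 against 80.7 and 62.6 CPM (-2.53 ± 0.12), and Dntt, the terminal transferase, at 129.7 and 121 against 1000.05 and 682 CPM (-2.59 ± 0.099). Slc7a11, a subunit of the cystine-glutamate antiporter, was at 0.716 and 0.144 against 91.2 and 60.9 CPM (-7.12 ± 0.18). Ccr9, a homing receptor of thymocytes, was the listed gene that rose, by 0.23 under TMM scaling, with overlapping groups. Its CPM was lower in OT-I 1 than in wild-type 4 and higher in OT-I 2 than in wild-type 5. Among the 12 genes with the largest fall were also Ly6d, a surface protein of early lymphocytes (29.8 and 14.7 against 820.5 and 422 CPM), Dhrs3, which reduces retinal (2.34 and 2.59 against 73.3 and 68.2 CPM), Cacna1e (0.218 and 0.575 against 26.1 and 16.2 CPM), Insl5 (0.592 and 0.431 against 27.6 and 15.03 CPM), BB031773 (0.529 and 0.144 against 24.8 and 21.9 CPM), Xrra1 (0.529 and 0.503 against 23.3 and 16.3 CPM) and Tdrd5 (3.21 and 2.66 against 73.4 and 60.2 CPM). All of these lay below both wild-type mice in both OT-I mice.

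Neutrophil granule genes were among the largest falls in all cells. Ngp had no UMI in either OT-I mouse and 6.14 and 71.8 CPM in the wild-type mice, at least 369.8-fold lower (against a floor of 3 UMIs over the group). S100a8 and S100a9, the subunits of calprotectin, were at 0.436 and 0.0719 against 115 and 238 CPM and 0.779 and 0 against 137 and 315 CPM. The wild-type mice thus held RNA of granulocytes that was nearly missing from the OT-I mice, and its part in other results was not tested. Lyz2, a lysozyme of myeloid cells, was at 32.1 and 34.7 against 43.99 and 79.2 CPM (-0.67 ± 0.10), but turned to 0.28 without wild-type 5. Of the 9 myeloid and dendritic markers 3 were higher and 2, Siglech and Lyz2, lower.

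Genes known from gamma-delta T cells were among the largest rises in all cells. Cd163l1, a scavenger receptor of gamma-delta T cells, was at 81.9 and 93.5 CPM in the OT-I mice and 1.92 and 1.78 CPM in the wild-type mice (log2 fold change 5.65 ± 0.13, adjusted p = 4.95e-170). Blk, a Src-family kinase, was at 76.9 and 96.6 against 2.09 and 2.26 CPM (5.42 ± 0.13), Sox13 at 59.1 and 109.5 against 1.995 and 3.72 CPM (5.01 ± 0.13), Etv5 at 81.4 and 189 against 3.06 and 7.19 CPM (4.85 ± 0.12) and Maf at 137 and 364 against 5.15 and 15.2 CPM (4.78 ± 0.11); the last 3 are transcription factors. The lower OT-I mouse was above the higher wild-type mouse for each. Of 10 listed gamma-delta T genes, 9 were higher and 1 was lower. Trdc, the constant region of the TCR delta chain, was at 537 and 343 against 114 and 95.1 CPM (2.18 ± 0.098), and Tcrg-C4 at 89.2 and 105 against 13.04 and 31.99 CPM (2.38 ± 0.11). Mme, the peptidase CD10, was at 24.5 and 19.99 against 0 and 0.0404 CPM, which rests on 1 wild-type UMI. The other large rises were Myo6 (70.5 and 92.5 against 4.098 and 4.16 CPM), the small GTPase Gem (23.4 and 14.9 against 1.45 and 0.848 CPM), Tox2 (38.1 and 31.8 against 2.605 and 2.42 CPM), Cpa3, a mast cell and progenitor protease (62.8 and 81.4 against 5.07 and 8.28 CPM), the ATP-gated channel P2rx7 (30.7 and 30.6 against 2.82 and 2.83 CPM) and Actn2 (53.4 and 37.8 against 5.13 and 4.81 CPM). The antibodies to gamma-delta receptors did not follow: none was called in all cells. In the DN gate alone, the TCR gamma-delta antibody was at 3.103 and 6.71 against 21.7 and 21.1 per 10000. Vg2 was at 2.497 and 4.77 against 15.8 and 18.4 per 10000 there. Both were called lower in the OT-I mice (-1.53 ± 0.35 and -1.60 ± 0.36). That gate held 18.3% and 21.1% of the OT-I cells and 2.18% and 3.77% of the wild-type cells, so its make-up may differ.

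Most listed genes of the CD8 lineage, of maturation and of TCR signaling were higher in all cells. Runx3, the CD8 lineage factor, was at 184 and 304 CPM in the OT-I mice and 35.7 and 56.1 CPM in the wild-type mice (2.53 ± 0.099, adjusted p = 9.12e-93). Nkg7, a cytotoxic granule protein, was at 266 and 113 against 33.4 and 23.99 CPM (2.78 ± 0.10), and Itgae, the CD103 integrin chain, at 52.5 and 70.3 against 8.18 and 13.3 CPM (2.68 ± 0.11). Of 15 CD8 lineage genes 10 were higher and 3 lower, those being Cd8a (-1.30), Cd8b1 (-1.82) and Xcl1 (-4.51), a chemokine. Klf2, which drives exit from the thymus, was at 403 and 190.4 against 98.97 and 37.3 CPM (2.31 ± 0.1), and its target S1pr1, the receptor for sphingosine phosphate, at 75.8 and 182 against 25.6 and 53.4 CPM (1.80 ± 0.096). Of 15 maturation and egress genes 12 were higher and none lower. Of 14 TCR signal response genes 11 were higher and none lower, at a median of 0.45. Ikzf2 (1.06 ± 0.094) and Itm2a (0.75 ± 0.094) were clear of the wild-type mice, while Egr1 (0.28) and Cd5 (0.30) overlapped them. Within the SP gates the median of this list was below 0, at -0.10 in the CD4 SP and -0.20 in the CD8 SP gate. Zbtb7b was at 6.603 and 10.4 against 11.01 and 14.7 CPM (-0.50 ± 0.14). Of 15 cell cycle genes 12 were lower, with Mki67, a marker of cycling cells, at 261 and 318 against 452 and 689.5 CPM (-0.82 ± 0.093).

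**Figure D4:**
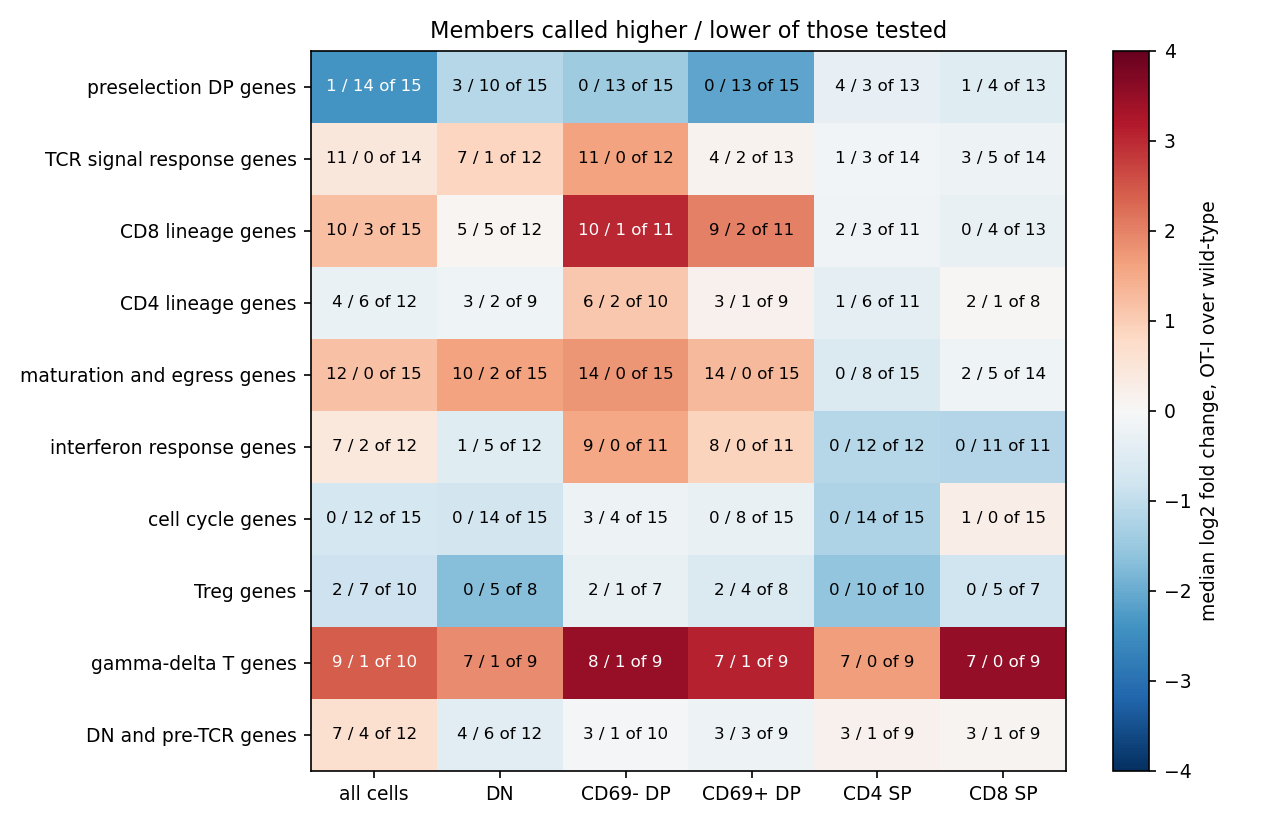
Median log2 fold change, OT-I over wild-type (color), of 10 gene lists in all cells and in 5 gates, with the number of members called higher / lower of those tested written in each cell. Gamma-delta T genes are red in every column, while maturation, CD8 lineage and interferon genes are red in the DP gates and pale or blue in the SP gates.

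Within the DN gate, 1292 genes were higher (12.3%) and 1231 lower (11.7%) of 10518. Without OT-I 1, 1461 genes were called. This gate was added after seeing the data. It held 602 and 685 OT-I cells and 264 and 342 wild-type cells. The largest falls were neutrophil genes that had no UMI in the OT-I mice, namely Retnlg, Ngp, Lcn2, Mmp8, Camp and Ltf, with bounds from at least 204-fold (Ltf) to at least 547-fold (Retnlg) lower. Rag1 was at 2.49 and 11.4 against 135 and 422 CPM (-5.40 ± 0.21) and Ptcra at 7.303 and 11.1 against 155 and 119.9 CPM (-3.98 ± 0.23). Il2ra, the CD25 chain of DN2 and DN3 cells, was at 45.96 and 84.7 against 218 and 383 CPM (-2.22 ± 0.15), and its antibody CD25 at 56.7 and 68.4 against 483 and 578 per 10000 (-2.38 ± 0.48). These 3 genes and CD25 were lower in both OT-I mice than in either wild-type mouse, while of the 12 listed DN and pre-TCR genes 4 were higher and 6 lower. The largest rises, TCR genes left out, were Myo6 (201 and 189 against 1.93 and 5.01 CPM), Tgfb3 (21.2 and 24.7 against 0.643 and 0.418 CPM), Wfs1 (37.1 and 60.6 against 1.07 and 1.67 CPM), Iqch (22.3 and 22.8 against 0.429 and 1.25 CPM), Igfbp4 (665 and 485 against 23.4 and 19.6 CPM) and Etv5 (346 and 592 against 17.1 and 18.4 CPM). Ccr9 was also higher, at 958 and 1878 against 87.9 and 298 CPM (3.04 ± 0.19), and Gata3, a factor of T cell commitment, at 390.3 and 636 against 102 and 181 CPM (1.87 ± 0.14). Of 15 cell cycle genes 14 were lower, with a median of -0.73; of 15 maturation genes 10 were higher and 2 lower, and of 9 gamma-delta T genes 7 were higher and 1 lower. Of 8 myeloid and dendritic markers 3 were lower and none higher. The 6 erythroid markers, of which 2 were lower, summed to 2454 and 37.4 against 4536 and 21.3 CPM, and their part in these results was not tested.

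In the CD69- DP gate, 1240 genes were higher (11.4%) and 1253 lower (11.5%) of 10888. This gate compares cells that pass the thresholds of both coreceptors and carry little CD69, and these need not be at like stages. Vb5 passed its threshold in 58.7% and 48.2% of its OT-I cells and 1.32% and 1.49% of its wild-type cells. Over all DP cells the coreceptor medians were lower in the OT-I mice, as given above. The part of the make-up of the gate in the gene differences below was not tested. Genes that follow a TCR signal were higher in the OT-I mice. Cd5, which is set by the strength of TCR signals, was at 228 and 187 CPM in the OT-I mice and 69.3 and 67.4 CPM in the wild-type mice (1.72 ± 0.11, adjusted p = 5.22e-09), and the CD5 antibody at 1344 and 1234 against 319 and 356 per 10000 (2.44 ± 0.56). Egr1, an immediate target of TCR signals, was at 97.04 and 130.2 against 28.5 and 57.99 CPM (1.61 ± 0.14), and Nr4a1, another, at 24.8 and 21.7 against 4.97 and 17.2 CPM (1.62 ± 0.34). All 3 genes were higher in both OT-I mice than in either wild-type mouse. Of 12 TCR signal response genes 11 were higher and none lower; Itm2a rose by 2.86 and Nab2 by 2.53.

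Maturation, CD8 lineage and interferon genes were higher as well. Klf2 was at 212 and 109 against 19.8 and 7.595 CPM (3.66 ± 0.14) and S1pr1 at 46.3 and 114 against 3.85 and 10.9 CPM (3.60 ± 0.16). Gimap4, a GTPase of mature T cells, rose by 4.39 ± 0.21. Of 15 maturation and egress genes 14 were higher. Of 11 CD8 lineage genes 10 were higher, with Runx3 at 88.01 and 148 against 12.5 and 18.1 CPM (3.01 ± 0.14) and Nkg7 at 88.3 and 32.1 against 4.64 and 4.29 CPM (3.98 ± 0.24). The lower one was Cd8b1 (880.4 and 978 against 2496 and 2989.9 CPM). Interferon response genes were higher in 9 of 11 cases, with Isg15 at 102 and 50.96 against 26.7 and 12.1 CPM (2.09 ± 0.15). Of 15 preselection genes 13 were lower, and Rag1 was at 157 and 306 against 1401 and 2291 CPM (-2.93 ± 0.11). Mme had no UMI in the wild-type mice and was at least 813-fold higher in the OT-I mice, at 55.9 and 52.9 CPM. Cd163l1 (39.5 and 49.1 against 0.152 and 0.804 CPM), P2rx7 (30.7 and 35.9 against 0.727 and 0.894 CPM), the integrin chain Itgb3 (31.3 and 49.1 against 0.909 and 1.61 CPM), Tox2 (39.2 and 29.3 against 1.12 and 1.25 CPM) and the chromatin remodeler Chd7 (38.1 and 37.8 against 1.09 and 1.88 CPM) made up the 6 largest rises. The largest falls were S100a9, at 0 in the OT-I mice, Slc7a11 (1.41 and 0 against 134 and 94.7 CPM), Cacna1e, Dhrs3 (3.95 and 4.72 against 104 and 90.96 CPM), Nron (0.846 and 1.89 against 20.9 and 27.8 CPM) and Insl5 (1.97 and 1.89 against 39.5 and 21.5 CPM). S100a9 is a granulocyte gene named above, and whether its RNA in this gate came from DP cells was not tested. The gate held 412 and 247 OT-I cells, and without OT-I 1 or OT-I 2, 442 and 1098 genes were called. Total scaling gave 1054 higher and 2044 lower. Erythroid markers summed to 1369.5 and 16.04 against 195 and 136 CPM here, with 3 of 4 higher, and highest in OT-I 1.

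In the CD69+ DP gate, 1584 genes were higher (14.9%) and 1560 lower (14.7%) of 10603. Cells of both genotypes here carry CD69, an early mark of a signal, and of 13 signal response genes 4 were higher and 2 lower, at a median of 0.14. The part of the make-up of this gate in its gene differences was not tested either. Nr4a1 was at 27.4 and 40.2 against 51.9 and 79.2 CPM (-0.72 ± 0.15) and Nr4a3 changed by -1.42. Rag1 was at 20.9 and 99.2 CPM in the OT-I mice and 1206 and 1870.2 CPM in the wild-type mice (-4.76 ± 0.14, adjusted p = 2.01e-223), and Rag2 at 2.84 and 8.27 against 113 and 121 CPM (-4.40 ± 0.20). Both wild-type mice were far above both OT-I mice for each. Of 15 preselection genes 13 were lower. Runx3 was at 183 and 329 against 34.9 and 57.99 CPM (2.67 ± 0.13), S1pr1 at 49.1 and 183 against 5.602 and 20.7 CPM (3.36 ± 0.16), Klf2 at 273 and 156 against 37.95 and 22.2 CPM (3.06 ± 0.14) and Ccr7, a receptor that guides cells to the medulla, at 88.1 and 123 against 32.8 and 60.8 CPM (1.46 ± 0.13). Of 15 maturation genes 14 and of 11 CD8 lineage genes 9 were higher; Cd8b1 (479 and 599.9 against 2224 and 2573 CPM) and Ccl5 (-1.48) were the lower ones of the latter. Zbtb7b, the CD4 lineage factor, was at 9.52 and 12.4 against 5.92 and 8.14 CPM (0.88 ± 0.28), higher in the OT-I mice. Trbv12-2 had no UMI in the OT-I mice, at least 21.7-fold lower, and Trac, the alpha chain constant region, was at 381 and 383 against 773 and 756 CPM (-0.78 ± 0.12). The largest rises were Mme, Cd163l1 (27.2 and 37.6 against 0 and 0.794 CPM), Sox13 (27.2 and 37.6 against 0.868 and 3.18 CPM), Maf (20.5 and 82.7 against 1.18 and 6.95 CPM), Pdlim4 (46.2 and 31.2 against 3.87 and 1.99 CPM) and Myo6 (35.6 and 83.1 against 3.71 and 4.37 CPM), and the largest falls Slc7a11, Cacna1e, Dhrs3, Xrra1, BB031773 and Ly6d (10.3 and 13.5 against 702 and 396 CPM). Without OT-I 1, OT-I 2 or wild-type 4, 1039, 1995 and 1818 genes were called. Total scaling moved the median of all genes by -0.23 and gave 875 higher and 3082 lower. All 4 erythroid markers tested were higher, at a median of 3.37, with sums of 12.5 and 338 against 4.66 and 28.2 CPM and the highest in OT-I 2, while 3 of 5 myeloid and dendritic markers were lower.

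**Figure D5:**
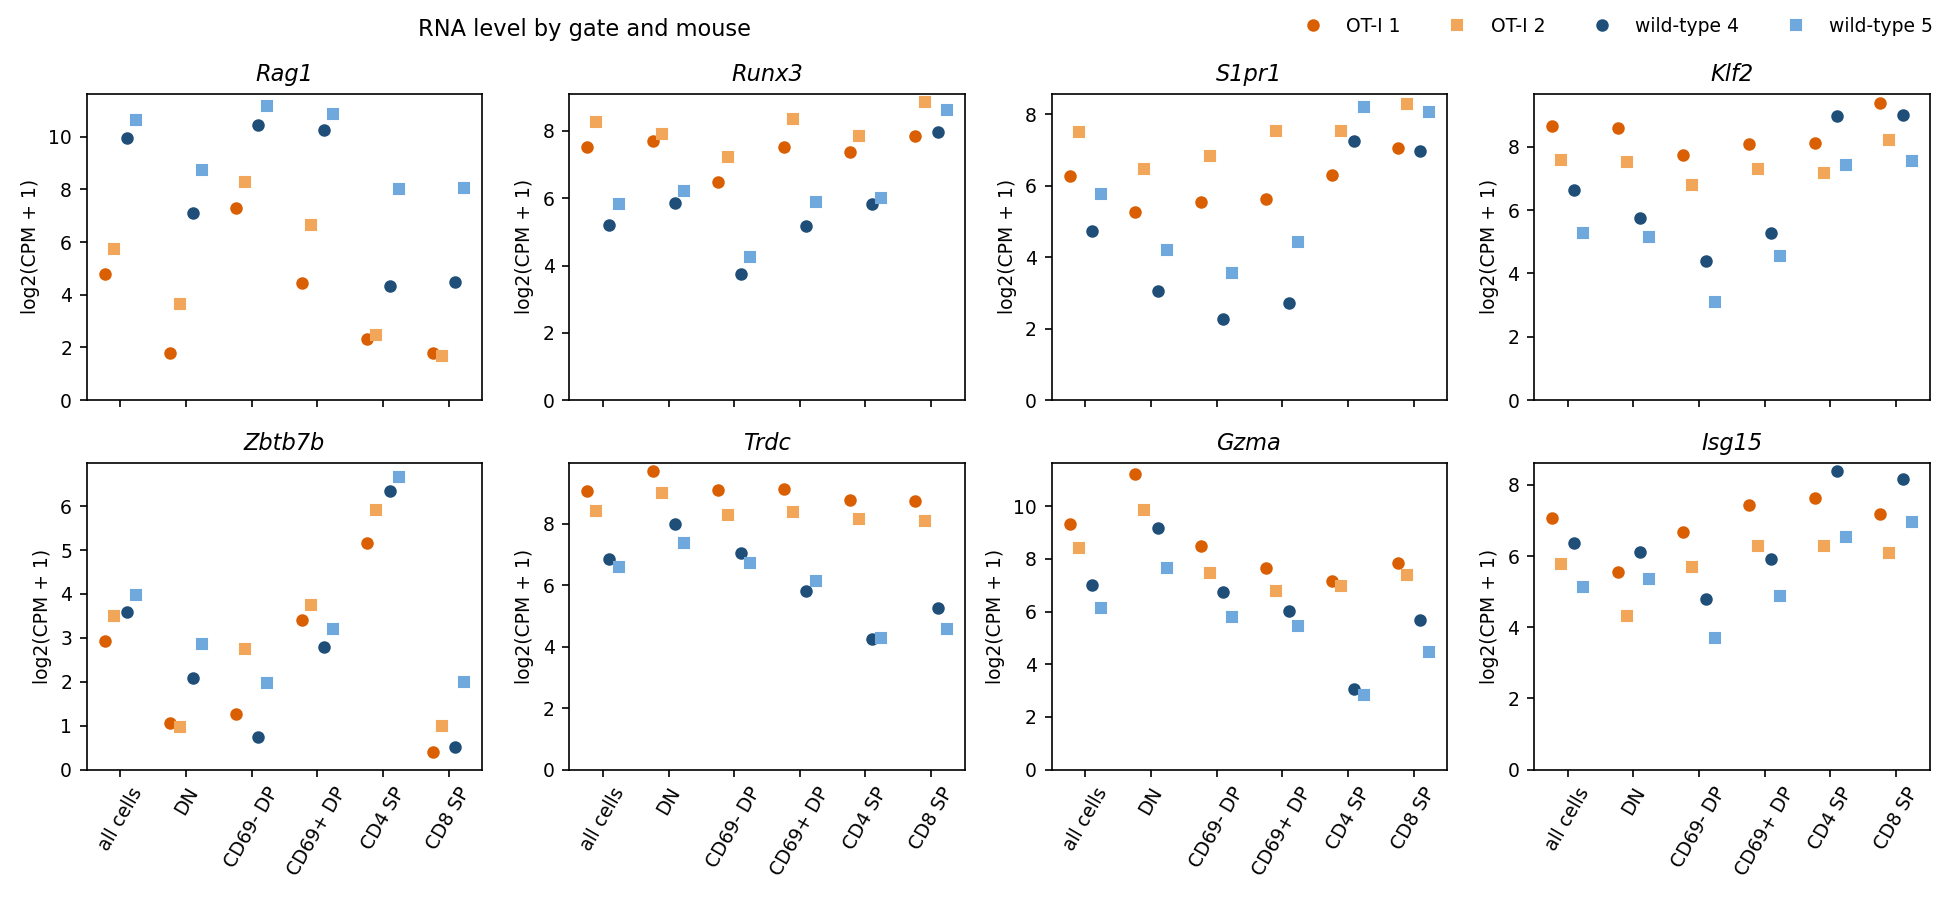
RNA level, as log2 of CPM plus 1, of 8 genes in all cells and in 5 gates, each point a mouse. Runx3, S1pr1 and Klf2 are higher in the OT-I mice in the DN and DP gates. The groups overlap for all 3 in the CD8 SP gate, where Klf2 and S1pr1 are still higher in the OT-I mouse of each lane group. Trdc and Gzma are higher in the OT-I mice in every gate.

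In the CD4 SP gate, 321 genes were higher (3.34%) and 675 lower (7.02%) of 9621. The CD4 lineage factor was lower and the CD8 lineage factor higher in the OT-I mice, while the CD8 lineage genes as a list were not higher. Zbtb7b was at 34.9 and 59.5 CPM in the OT-I mice and 79.98 and 101 CPM in the wild-type mice (-0.99 ± 0.14, adjusted p = 5.62e-10), and Runx3 at 166 and 232 against 55.7 and 63.6 CPM (1.71 ± 0.12). Both genes separated the groups, in opposite directions. Of 11 CD8 lineage genes 2 were higher and 3 lower, with a median of -0.13. Of 11 CD4 lineage genes 6 were lower and 1, the chemokine receptor Ccr4 (1.17 ± 0.19), was higher. Gzma, a granzyme, was at 140.2 and 125 against 7.23 and 6.08 CPM (4.31 ± 0.18). Sox13, Blk, Cd163l1, Etv5 and Mme, which had no wild-type UMI, were the other largest rises with TCR genes left out. All 10 regulatory T cell genes tested were lower, among them Foxp3, the factor that defines the lineage (3.34 and 5.76 against 19.8 and 15.4 CPM, -2.12 ± 0.32) and Ctla4 (3.34 and 3.84 against 13.6 and 47.001 CPM). All 12 interferon response genes were lower too, with a median of -1.14, and so were Iigp1 (2.12 and 4.48 against 68.7 and 33.6 CPM), an interferon-inducible GTPase, and H2-Q7 (11.8 and 6.397 against 134 and 46.2 CPM). Of 15 cell cycle genes 14 were lower, with a median of -1.24, and of 15 maturation genes 8 were lower and none higher, with Ccr7 at 151 and 209 against 282 and 404 CPM (-0.91 ± 0.11).

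The 2 wild-type mice differed within the CD4 SP gate. Rag1, one of its 6 largest falls, was at 3.94 and 4.48 against 19.1 and 256.5 CPM, far higher in wild-type 5 than in wild-type 4. Cd8b1 was at 111.4 and 115 against 57.1 and 286 CPM and did not pass the test. The part of DP cells in this gate of wild-type 5 was not tested. With the OT-II mice in the fit 507 genes were called in this gate; in that fit, without wild-type 4, 17 genes were higher and 15 lower, and without OT-I 1, OT-I 2 or wild-type 5, 174, 303 and 418 genes were called. The remaining large falls were Lgals3 (0.607 and 1.92 against 31.1 and 6.48 CPM), Nrgn (2.73 and 1.92 against 54.4 and 35.3 CPM) and H2-Aa, an MHC class II chain (0.303 and 9.595 against 53.8 and 28.8 CPM). Markers of other cells were called lower as well. They were 3 of 4 myeloid and dendritic markers, at a median of -1.83 and sums of 94.7 and 79.3 against 138 and 130.5 CPM. All 3 erythroid markers tested were also called lower, with sums of 11.5 and 61.4 against 816 and 23.5 CPM. The erythroid sum was higher in OT-I 2 than in wild-type 5, so the lane groups went in opposite directions. The part of both groups of markers in these falls was not tested.

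In the CD8 SP gate, 181 genes were higher (1.88%) and 280 lower (2.91%) of 9613. This gate had the smallest share of called genes. Runx3 was at 228 and 463 CPM in the OT-I mice and 252 and 391 CPM in the wild-type mice, S1pr1 at 133 and 311 against 126 and 270.2 CPM and Cd5 at 149 and 126 against 149 and 137 CPM, and none of the 3 passed the test. Klf2 was at 658 and 294 against 510 and 187 CPM, higher in the OT-I mouse of each lane group. The median was -0.16 for the 14 maturation genes tested and -0.20 for the 14 signal response genes. No CD8 lineage gene was higher and 4 of 13 were lower. Xcl1, lymphotactin, had 1 UMI in the OT-I mice and was at 77.3 and 73.5 CPM in the wild-type mice, higher there by 1019-fold, with a 95% counting interval from 181 to 40399. Cd8b1 was at 832 and 877 against 1293 and 1575 CPM (-0.74 ± 0.10). All 11 interferon response genes were lower, with Ifit1 at 56.6 and 37.8 against 181 and 112 CPM (-1.64 ± 0.12) and Isg15, whose groups overlapped across the lane groups, at 144 and 66.4 against 286 and 124 CPM. Of 9 gamma-delta T genes 7 were higher, with Trdc at 423 and 269.8 against 37.4 and 22.9 CPM (3.52 ± 0.14) and Maf at 54.4 and 193 against 1.27 and 11.9 CPM (4.42 ± 0.24). Gzma was at 228 and 166 against 49.7 and 20.9 CPM (2.39 ± 0.15). Sox13, Cd163l1, Blk, Myo6 (39.03 and 47.9 against 1.698 and 2.98 CPM) and Etv5 (18.5 and 65.2 against 1.698 and 2.98 CPM) completed the largest rises. Next to Xcl1, the largest falls were Arhgap20, Iigp1 (0.536 and 0.247 against 29.7 and 10.9 CPM), Ly6d (1.501 and 2.22 against 74.7 and 58.6 CPM), Lad1 (0 and 1.23 against 3.397 and 40.7 CPM) and Rag1 (2.47 and 2.22 against 21.2 and 265 CPM), the last 2 again highest in wild-type 5. Fits that left out 1 mouse had neither the OT-II mice nor the block in this gate: without wild-type 4, 1 gene was higher and 13 lower, and without OT-I 1, OT-I 2 or wild-type 5, 53, 44 and 31 genes were called. Erythroid markers summed to 413 and 6.66 against 1.70 and 8.94 CPM in this gate.

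The genotype effect was compared between gates by the interaction of gate and genotype, with the mouse as a block. Between the CD8 SP and CD69+ DP gates, 548 genes (5.1%) had a higher and 754 (7.02%) a lower effect in the CD8 SP gate. All 14 maturation genes tested had a lower effect there, as had 9 of 13 CD8 lineage and 10 of 12 interferon response genes. The log2 difference was -2.60 (adjusted p = 2.21e-07) for Runx3, -3.18 (adjusted p = 6.95e-06) for S1pr1, -2.62 (adjusted p = 3.35e-06) for Klf2 and -2.66 (adjusted p = 3.84e-07) for Isg15. Isg15 was thus higher in the OT-I mice in the CD69+ DP gate and lower in the CD8 SP gate, while Runx3 and S1pr1 passed the test in the former only. Between the CD8 SP and CD4 SP gates, 383 genes (3.83%) had a higher and 158 (1.58%) a lower effect in the CD8 SP gate. All 15 cell cycle genes had a higher effect there, with Mki67 at 1.63 (adjusted p = 6.25e-11). Runx3 was at -1.65 (adjusted p = 1.96e-14), Gzma at -2.01 (adjusted p = 4.36e-09) and Gata3 at 1.31 (adjusted p = 2.78e-08). Of the interferon genes only 1 of 12, Ifi27l2a, differed between these 2 gates (0.96 (adjusted p = 2.67e-13)). The same 4 mice gave all gates, so these comparisons share samples.

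The lists not yet described are given for all cells, to be read against the shares of all genes called given above. Of 7 TCR complex genes in all cells, Trbc2 rose (9334 and 5317 against 5571 and 2748 CPM, 0.98 ± 0.084, higher within each lane group though the groups overlapped) and Trac fell (327 and 279.5 against 489 and 488 CPM, -0.56 ± 0.093), while Trbc1 and the CD3 chains did not pass the test. Of 12 DN and pre-TCR genes 7 were higher, led by Cpa3 and Dtx1 (2.91 ± 0.11), and 4 lower. Of 12 CD4 lineage genes 4 were higher and 6 lower. Of 10 regulatory T cell genes 2 were higher and 7 lower. Of 10 negative selection genes 5 were higher, with Pdcd1, which encodes PD-1, at 30.2 and 22.1 against 11.01 and 7.96 CPM (1.60 ± 0.12), and 2 lower, with Lag3 at 0.623 and 1.08 against 8.74 and 5.21 CPM (-3.06 ± 0.28). Of 10 NKT and innate-like genes 4 were higher and 2 lower, those being Zbtb16, the factor of innate-like T cells (0.0934 and 0 against 2.15 and 1.33 CPM), and Klrb1c (0.249 and 0.288 against 0.579 and 2.67 CPM). Of 12 interferon response genes 7 were higher and 2 lower, of 12 cytokine receptor and survival genes 4 and 5, and of 10 trafficking receptors 6 and 4. Bcl2l1, a survival gene of DP cells, was at 19.6 and 19.9 against 89.2 and 98.9 CPM (-2.11 ± 0.10), and Plxnd1 at 12.6 and 15.4 against 63.7 and 79.7 CPM (-2.22 ± 0.11). Of the 7 Trbv12 and Trav14 segments tested, which cover the Vb5 and Va2 families and not only the transgene, Trbv12-1 alone was higher and 5 were lower. Of the lists for other cells and RNA quality, that of 6 erythroid markers had 5 higher and none lower, at a median of 0.49, with overlapping groups for every member. The counts higher and lower were 1 and 1 of 8 B cell markers, 2 and 1 of 5 stromal and epithelial markers, and 3 and 1 of 8 RNA quality and dissociation genes. For the hemoglobin genes among the erythroid markers, lane group 1 and lane group 2 went in opposite directions, Hba-a2 being at 158 and 15.5 against 72.1 and 25.4 CPM.

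Surface protein changes were led by Vb5, homing integrins and CD62L. Of 111 antibodies in all cells, 12 were called higher (10.8%) and none lower (0.0%), and 20 had an unadjusted p under 0.05. Levels are UMIs per 10000 antibody UMIs. Vb5 was at 165 and 131 per 10000 in the OT-I mice and 9.23 and 9.01 per 10000 in the wild-type mice (4.65 ± 0.34, adjusted p = 1.49e-23). CD62L, the lymph node homing selectin, was at 384 and 426 against 92.5 and 116 per 10000 (2.60 ± 0.32), integrin b7 at 114 and 116 against 23.5 and 31.3 per 10000 (2.72 ± 0.31) and CD103, its alpha partner, at 48.1 and 46.02 against 16.9 and 16.9 per 10000 (2.12 ± 0.32). CD5 was at 1345 and 1322 against 606 and 722 per 10000 (1.65 ± 0.36) and the TCR beta chain at 95.8 and 81.8 against 46.2 and 55.2 per 10000 (1.45 ± 0.30). CD54 (46.8 and 57.3 against 27.5 and 34.7 per 10000) and CD11a (664 and 695 against 389 and 523 per 10000), a pair of adhesion partners, completed the 8 largest. In every one of these the 2 OT-I mice were above the 2 wild-type mice. CD43, CD71, PD-1 and ICOS were the other 4. With the antibody filters on cells 5 of the 12 remained called. With the OT-II mice in the fit 19 antibodies were called, and without OT-I 1, OT-I 2 or wild-type 4 in that fit 28, 78 and 5.

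Antibody folds depend on scaling more than RNA folds. TMM factors ran from 0.716 in OT-I 1 to 1.28 in wild-type 5, and scaling to the total lowered the median log2 fold change from -0.06 to -0.70 and gave 10 higher and 23 lower. The log2 fold change under total scaling was -1.25 for CD4, -0.87 for CD8a and -1.26 for CD8b, all called, while none was called under TMM. CD24, which falls as thymocytes mature, was at 157 and 154 against 247 and 201 per 10000; its log2 fold change was 0.12 under TMM and -0.51 under total scaling. CD69 (20.1 and 21.99 against 18.6 and 21.1 per 10000) and CD127, the interleukin 7 receptor (4.18 and 4.76 against 4.101 and 4.31 per 10000), overlapped between the groups and were not called. The list of 16 maturation antibodies had 6 higher, that of 11 signal response and checkpoint antibodies 3 and that of 7 antigen receptor antibodies 2. The lists of coreceptor (3), innate-like (6), chemokine receptor (5) and other cell type (12) antibodies had none called, and the antibody to H-2Kb with SIINFEKL was at 3.52 and 5.18 against 8.6995 and 8.91 per 10000 and was not called.

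The antibodies were also tested within the gates, apart from those that define them. In the DN gate 9 were higher (8.41%) and 9 lower (8.41%) of 107, with CD62L at 1376 and 1253 against 204 and 326 per 10000 (3.05 ± 0.71) and Ly-6C at 6.64 and 8.87 against 65.2 and 58.4 per 10000 (-2.31 ± 0.36). The other rises among the 8 largest were Vb5, integrin b7, CD103, CD11a, PD-1, CD150 and GITR, and the other falls among the 8 largest were CD25, Vg2, the gamma-delta TCR, CD73, CD304, CD23 and CD200. In the CD69- DP gate 6 were higher (5.61%) and none lower (0.0%) by edgeR, while 13 had an unadjusted p under 0.05. Those called were Vb5, CD5, CD62L (274 and 279 against 91.6 and 110.4 per 10000), integrin b7, CD54 and CD71, the transferrin receptor. In the CD69+ DP gate 3 were higher (2.8%) and 4 lower (3.74%). Vb5 was at 137 and 102 against 9.801 and 9.61 per 10000; CD127 (3.51 and 4.19 against 3.58 and 3.799 per 10000) and CD55 (2.46 and 2.06 against 2.16 and 2.26 per 10000) overlapped between the groups, and the 4 lower ones, Vb8, CD204, CD23 and CD45.1, were at under 7 per 10000 in every mouse. Total scaling gave 5 higher and 10 lower in this gate and kept 1 of these 7 calls, Vb5, and without the block 11 were higher and none lower, with 3 of the 7 kept. In the CD4 SP gate 1 was higher (0.935%), Vb5, and 2 lower (1.87%), Vb8 (1.28 and 3.11 against 6.895 and 7.83 per 10000) and CD23. Total scaling gave 5 higher and 6 lower there: Vb8 and CD23 lost their calls, and CD62L (0.88), CD8b (0.79) and CD24 (0.50) were called higher. In the CD8 SP gate Vb5 alone was higher (0.935%), at 177 and 142 against 28.1 and 27.7 per 10000, and none was lower (0.0%), with 8 at an unadjusted p under 0.05; total scaling gave 2 higher and 4 lower. In the CD69- DP gate total scaling gave 9 higher and 5 lower and kept all 6 calls, and in the DN gate 9 higher and 24 lower and kept 16 of 18. Adding the OT-II mice to the fit gave 21, 40, 40 and 14 called antibodies in the DN, CD69- DP, CD69+ DP and CD4 SP gates. The fits that left out 1 mouse also held them (in the CD8 SP gate they had neither these mice nor the block), so their counts did not change with the mouse alone: without OT-I 2, 48 to 83 antibodies were called in the CD69- DP, CD69+ DP, CD4 SP and CD8 SP gates, without OT-I 1, 41 in the DN gate and 2 to 31 in the others, without wild-type 4, 8 in the DN gate and 0 or 1 in the others, and without wild-type 5, 11 in the DN gate and 0 to 3 in the others.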

How the data were processed

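CITE-seq libraries (10x Single Cell 3' v3 with TotalSeq-A antibodies) of unsorted suspensions of mechanically dissociated, strained thymus were analysed for 2 OT-I and 2 wild-type mice. The deposited matrices hold UMI counts per cell for 28692 genes and 111 shared antibodies, made by the authors with Cell Ranger 3.1.0 against mm10. Further antibodies present only in this experiment were left out of the tests. Cells with at most 15% mitochondrial UMIs and at least 200 genes were kept, and gates used cells with 1000 to 10000 antibody UMIs and at least 70 antibodies. Thresholds were set by Otsu's method over cells pooled with equal weight per mouse. Doublets were kept in the main analysis and removed in an alternative.

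UMIs were summed per mouse and tested with edgeR 4.0.16 (quasi-likelihood, TMM, lane group as a block, R 4.3.3), with DESeq2 1.42.0 as an alternative. The procedure was run on simulated data that held no lane-group effect, so that run does not test the use of the block. A value after ± is a standard error. Residual degrees of freedom were 1, so p-values lean on the spread of other genes. The prior degrees of freedom, the weight of other genes, were 548 for RNA in all cells. They were infinite for RNA in the CD69+ DP and CD4 SP gates. For antibodies they were infinite except in the CD4 SP gate. Where infinite, the p-value used a spread pooled over all genes or antibodies, and the feature's own spread added nothing. With the block, the spread is only that of the genotype difference between the 2 lane groups of these mice. Spread between mice that goes with the lane group is taken out by the block. The lane groups were taken as pairs because of how the samples were run. Deviations from the genotype means correlated over genes within lane groups (r = 0.859 in all cells and 0.707 to 0.792 in the gates). With 2 mice per genotype this correlation describes 1 contrast and not independent pairs. The crossed pairing gives the same values with the opposite sign, so only the sign carries information and the pairing is not tested by it. Intervals are Wilson intervals for shares and cover counting error only. V segment sequences were read from the GRCm38 reference. Members, lists and tests were chosen with earlier results of these data known. Genes named are the 12 (all cells) or 6 (gates) with the largest log2 fold change in each direction among called genes with a mean of at least 10 CPM and the same direction in both lane groups (TCR and immunoglobulin segments and constant regions, predicted genes and the genes of the gating antibodies left out), set genes of the thymocyte stages, and examples from the lists, some of which were chosen after their values were seen. The values of 1 listed gene are not reported here.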

Additional observations from a re-analysis of the deposited data

Results flagged for a closer look

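The effect of genotype differed between gates for several named genes, each by a test of the gate-by-genotype interaction (edgeR's quasi-likelihood test, Benjamini-Hochberg adjusted). Between the CD8 SP and CD69+ DP gates the log2 difference was -3.18 (adjusted p = 6.95e-06) for S1pr1, -2.62 (adjusted p = 3.35e-06) for Klf2, -2.60 (adjusted p = 2.21e-07) for Runx3 and -2.66 (adjusted p = 3.84e-07) for Isg15. Between the CD8 SP and CD4 SP gates it was -1.65 (adjusted p = 1.96e-14) for Runx3, -2.01 (adjusted p = 4.36e-09) for Gzma, 1.63 (adjusted p = 6.25e-11) for Mki67, 1.31 (adjusted p = 2.78e-08) for Gata3 and 0.96 (adjusted p = 2.67e-13) for Ifi27l2a. All gates came from the same 4 mice.

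An antibody to CD11b, a myeloid integrin outside the 111 shared antibodies, gave 16.1 and 20.5 UMIs per 1000000 panel UMIs in the OT-I mice (mean 18.3) and 11.3 and 11.4 in the wild-type mice. It was in no comparison and its difference was not tested.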

How the results depend on the processing

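The number of genes called depended most on the lane-group block. Without it (the replicate block), edgeR called 28 genes in all cells, 59 in the DN gate and 0 in each of the CD69- DP, CD69+ DP, CD4 SP and CD8 SP gates, and of 86 single values named in the text 70 no longer passed; it called 12, 11, 8 and 3 antibodies in the last 4 gates. DESeq2 with the block called 2979 genes in all cells, 1082 DN, 1204 CD69- DP, 1271 CD69+ DP, 177 CD4 SP and 97 CD8 SP, and 670 and 119 in the interactions of CD8 SP with CD69+ DP and with CD4 SP. Total scaling called 33 antibodies in all cells, 33 DN, 14, 15, 11 and 6. With the OT-II mice in the fit, 507 genes were called in CD4 SP cells, and 19 antibodies in all cells, 40, 40 and 14 in the CD69- DP, CD69+ DP and CD4 SP gates; it was not run for CD8 SP cells. Thresholds times 1.5 gave 1938 genes in CD69+ DP cells, the first wild-type lanes alone 656 in CD4 SP and 274 in CD8 SP cells, and the antibody filters on cells 5 antibodies in all cells.

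Leaving out 1 mouse, with the OT-II mice in the fit to keep the block (for CD8 SP cells without both), gave 2376 to 3749 genes in all cells, 1461 to 3691 DN, 442 to 2187 CD69- DP, 1039 to 2533 CD69+ DP, 32 to 418 CD4 SP and 14 to 53 CD8 SP. For antibodies it gave 5 to 78, 8 to 41, 1 to 83, 0 to 79, 1 to 53 and 0 to 48 in the same order. The lone mouse of a genotype was then assumed to vary like the others. The log2 fold change of Lyz2 in all cells ran from -1.63 without wild-type 4 to 0.28 without wild-type 5.

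Differences of shares turned sign for CD69- CD4 SP cells (-0.0559 percentage points with thresholds divided by 1.5, and -0.0715 to 0.436 with 1 mouse left out), CD4+ cells without TCR beta (-0.0251, thresholds divided by 1.5), CD69+ cells among CD4 SP (-1.58, thresholds times 1.5) and among CD8 SP (-19.4 to 1.97 with 1 mouse left out). Without turning sign, the difference for CD69+ DP cells ran from -12.3 to -2.72 percentage points (main -4.93). That for CD4 SP cells ran from 2.34 to 9.09 (main 5.98). The cause of these changes was not tested. Of 1012 values of named genes and antibodies under all alternatives, 867 kept their direction and side of the threshold, 144 kept the direction only and 1 reversed. Depth limits genes with few UMIs in the small gates, the smallest holding 246 cells.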
